A study of Mus musculus with 6 samples.

Results

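The genes described here are those of the cytosolic ribosomal proteins, the proteins that together with ribosomal RNA build the large (60S) and the small (40S) subunit of the ribosome. Genes were taken by symbol, as Rpl or Rps followed by a number with an optional a, x or l, as Rplp0 to Rplp2, or as Rpsa. Of the 39017 genes in the count table, 81 met this rule, of which 50 encode large and 31 small subunit proteins. Splenic B cells of C57BL6/J mice had been grown as induced germinal centre B cells (iGBs) on 40LB feeders, mouse fibroblasts that display CD40L and secrete BAFF, with IL-4, and were freed of the feeders before RNA extraction. Control iGBs came from 3 Cγ1-cre mice and Prmt1-null iGBs from 3 Prmt1 F/F Cγ1-cre mice, with 2 females and 1 male in each group and 1 library per mouse, harvested on day 3.5 after plating. Both groups carry the Cre, which the constant region locus of IgG1 drives after B cell activation, so deletion of Prmt1 begins only in cells that have switched this locus on. The ages of the mice are not given in the sources used here. The question was whether loss of PRMT1, the main enzyme that dimethylates arginine asymmetrically, changed the mRNA levels of the ribosomal protein genes.

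Each ribosome holds 1 copy of nearly every ribosomal protein, so cells that grow, such as B cells after activation, need these mRNAs in large and balanced amounts. In mammals their mRNAs start with a C followed by a run of pyrimidines, the terminal oligopyrimidine or TOP motif, through which mTORC1 and the RNA-binding protein LARP1 set their translation. Many of the genes carry small nucleolar RNAs in their introns, and most have left processed pseudogenes, intronless copies of the mRNA, across the genome.

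Prmt1 itself was read first as a check of the labels. Its normalized count (a raw count scaled by library size and TMM factor) was 3964, 3924 and 4838 in Control and 1745, 1478 and 1477 in Prmt1-null iGBs, a log2 fold change of −1.44 (SE 0.095, adjusted p = 1.11e-05, edgeR's quasi-likelihood test, Benjamini-Hochberg adjustment over 18268 genes). Total counts ran from 45343250 to 62774232 per library. Summed over each list of markers, B cell genes stood at 9043 to 10510 CPM (counts scaled to library size) in Control and 10310 to 10660 in Prmt1-null libraries, and plasma cell genes at 966.4 to 1086 and 1105 to 1195. The 6 fibroblast genes stood at 14.85 to 18.89 and 18.37 to 23.22 CPM, with 5 of 5 tested members higher in Prmt1-null iGBs and 0 past the threshold, the 4 T cell genes at 1.073 to 2.201 and 1.364 to 2.319, and the 5 macrophage and neutrophil genes at 8.917 to 18.11 and 16.1 to 16.47. Of the macrophage and neutrophil genes 1 passed the threshold, Emr1, a macrophage surface receptor, at 300.1, 353.8 and 404.4 normalized counts in Control against 565, 533.7 and 657.9 (log2 fold change 0.73, adjusted p = 0.0319, edgeR's quasi-likelihood test). The part of these other cells in the values below was not tested, and in bulk RNA fewer cells of a type and less RNA per cell cannot be told apart.

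Of the 81 genes, 79 had enough counts to be tested, 48 of the large and 31 of the small subunit. Only 2 of the 79 passed the threshold (mean normalized count over 100, with an adjusted p below 0.05), Rpl15 and Rpl27a, and both rose in Prmt1-null iGBs. Both belong to the large subunit, and both sit deep in its RNA core. Over all genes tested, 1.18% passed in either direction, 0.58% as higher and 0.602% as lower in the Prmt1-null group. Of the 7279 genes with a mean normalized count over 1000, 84 passed as higher and 87 as lower. The 95% interval of the fold change lay within 1.4-fold either way for 74 of the 79 genes, and 75 of the 79 estimates were under 1.2-fold either way.

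**Figure D1:**
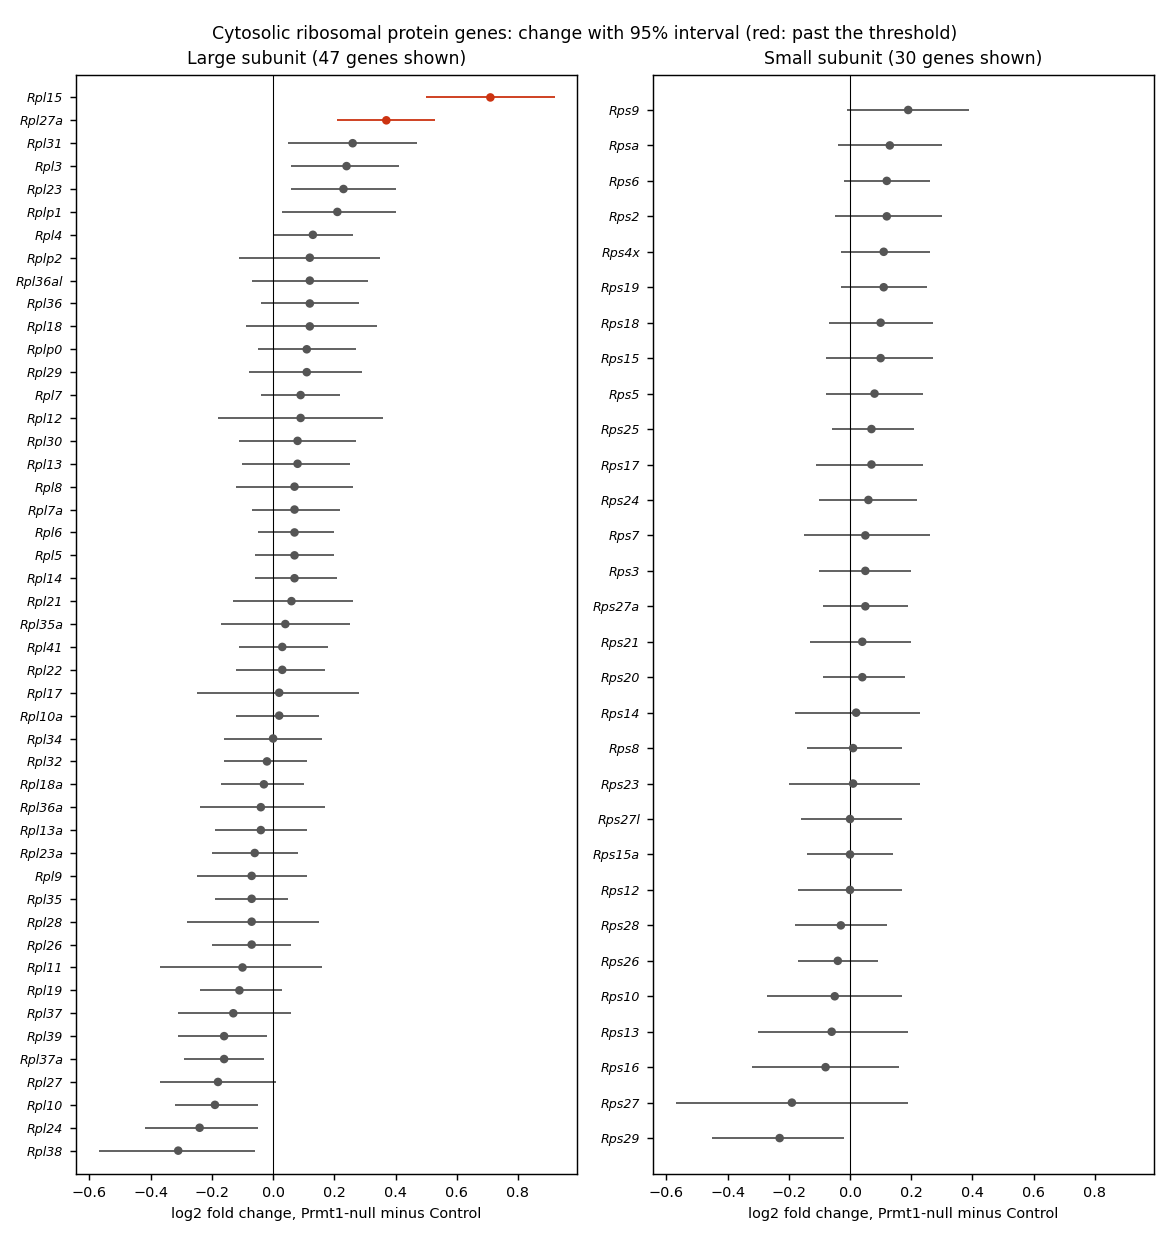
Log2 fold change (Prmt1-null minus Control, x axis) of the tested large subunit genes (left) and small subunit genes (right), ordered by value, with lines for the 95% interval and red for genes past the threshold. Rpl15 (0.71) and Rpl27a (0.37) stand at the top of the large subunit, the small subunit genes shown lie between −0.23 and 0.19, and 1 small subunit gene and Rpl39l, with an interval of −1.47 to 2.37, is left out of the plot.

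Rpl15 was the member with the largest change. The gene lies on the minus strand at chr14:18267823-18271391 (mm10), and it shares exon bases with 1 other gene, Nkiras1, on the opposite strand. Its normalized count was 1375, 1236 and 1236 in Control and 1880, 2355 and 2053 in Prmt1-null iGBs. The groups did not overlap, and the means of 1283 ± 80.3 and 2096 ± 240 (SD, n = 3) differed 1.64-fold, a log2 fold change of 0.71 (SE 0.10, 95% interval 0.50 to 0.92, adjusted p = 0.00491, edgeR's quasi-likelihood test). With each library left out in turn, Rpl15 passed the threshold every time, with values of 0.62 to 0.79.

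Rpl27a encodes a protein of the large subunit that the hydroxylase Mina modifies. It lies on the plus strand at chr7:109519147-109522367 (mm10), carries the small nucleolar RNAs Gm24888 and Snora3 within its bounds, and shares exon bases with no other annotated gene. Its normalized count was 2081, 2250 and 2413 in Control and 2982, 2799 and 2936 in Prmt1-null iGBs. Every Prmt1-null library was above every Control library, and the means of 2248 ± 166 and 2906 ± 95.3 differed 1.29-fold (log2 fold change 0.37, SE 0.075, 95% interval 0.21 to 0.53, adjusted p = 0.033, edgeR's quasi-likelihood test). The adjusted p was 0.013 without Control replicate 3 but between 0.0735 and 0.153 without any 1 of the other 5 libraries (0.0735 without Control replicate 1, 0.126 without Control replicate 2, and 0.153, 0.107 and 0.13 without Prmt1-null replicate 1, 2 and 3), at log2 fold changes of 0.32 to 0.42.

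Reads that fitted more than 2 places in the genome had not been counted, and those that fitted 2 were counted at their primary place, so a gene with close copies is measured partly through reads that its copies share. Of the stretches of 50 bases in the Rpl15 mRNA, 75.2% also occurred in 2 or more other annotated genes, against 31.1% for Rpl27a. Stretches found in fewer than 2 other genes were also sought over all annotated transcripts of each gene. Of these, 69.7% for Rpl27a and 3.8% for Rpl15 lay outside the gene's protein-coding transcripts. How many of the counted reads came from such transcripts was not tested. The 3 annotated Rpl15 pseudogenes together held 1842, 1543 and 1593 normalized counts in Control and 1436, 1515 and 1782 in Prmt1-null iGBs. Their sums overlapped between the groups, with means of 1659 and 1578, and exceeded the Control count of Rpl15 itself 1.293 times.

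When each member with pseudogenes named after it was summed with these and the table was tested again, the call for Rpl15 was lost. The summed count was 3204.8, 2775.9 and 2830.6 in Control and 3324.9, 3870.1 and 3840.9 in Prmt1-null iGBs, groups that did not overlap, with a log2 fold change of 0.32 and an adjusted p of 0.0683 (edgeR's quasi-likelihood test). Rpl27a, whose 2 pseudogenes had mean normalized counts of 127.3 (Control) and 123.4 (Prmt1-null), kept its call (0.35, adjusted p = 0.0349, edgeR's quasi-likelihood test). So small an addition could change its value little. Rpl15 shared a stretch of 50 bases with 23 other annotated genes and Rpl27a with 19, so not all copies were summed. How many of the pseudogene counts came from transcripts of Rpl15 was not tested. With pseudogenes summed in, 1 of 79 members passed, and 219 genes did in all.

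**Figure D2:**
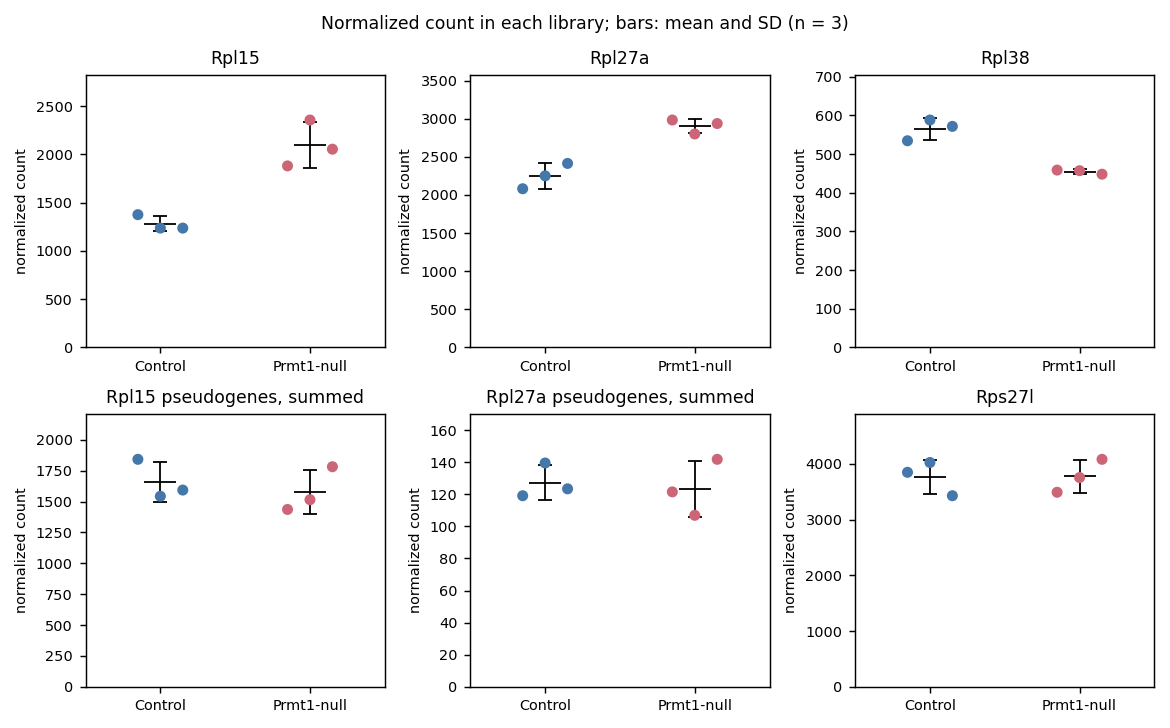
Normalized count (y axis, from 0) in each Control (blue) and Prmt1-null (red) library for Rpl15, Rpl27a, the summed pseudogenes of each, Rpl38 and Rps27l, with bars for the mean and SD (n = 3). Rpl15 and Rpl27a were higher in all Prmt1-null libraries, while the pseudogene sums and Rps27l overlapped between the groups and Rpl38 was lower in all Prmt1-null libraries without passing the test.

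Among the other large subunit genes with a mean normalized count over 100, the 3 next highest estimates belonged to Rpl31, which lies at the rim of the tunnel through which the new protein leaves, to Rpl3, whose extension reaches toward the peptidyl transferase centre, and to Rpl23. Rpl3 stood at 17000, 21450 and 20630 normalized counts in Control and at 23270, 23950 and 22440 in Prmt1-null iGBs, and Rpl23 at 11260, 14040 and 13740 and at 14870, 15250 and 15640. Neither gene overlapped between the groups, but Control replicate 1 was the lowest library in both, and the log2 fold changes of 0.24 (95% interval 0.06 to 0.41, adjusted p = 0.192) and 0.23 (0.06 to 0.40, adjusted p = 0.194, edgeR's quasi-likelihood test) missed the threshold. Without Control replicate 1 they were 0.15 and 0.14. Rpl31 had a value of 0.26 (adjusted p = 0.243) with overlapping groups. Its 22 pseudogenes held 19.96 times its own count in Control, and with them summed in its log2 fold change was −0.03.

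At the low end stood Rpl38, known from mouse embryos in which its partial loss alters the vertebral pattern. Its normalized count was 534.6, 588.2 and 571.8 in Control and 458.7, 457.2 and 448.1 in Prmt1-null iGBs. The groups did not overlap, yet the log2 fold change of −0.31 (95% interval −0.57 to −0.06) had an adjusted p of 0.248 in edgeR's quasi-likelihood test, and its 2 pseudogenes, which averaged 12410 in Control and 11750 in Prmt1-null libraries, held far more counts than the gene. Rpl24, which forms a bridge to the small subunit, had a log2 fold change of −0.24 (adjusted p = 0.224), and Rpl10, which joins late and is needed before the subunits can pair, of −0.19 (adjusted p = 0.198). Rpl10 was at 3585, 3679 and 3539 in Control and 3305, 3015 and 3179 in Prmt1-null iGBs, and also did not overlap. Rpl27 (−0.18) and Rpl39 (−0.16), a small protein that lines the exit tunnel, completed the 5 lowest values, with adjusted p-values of 0.397 and 0.303 (edgeR's quasi-likelihood test). With 1 library left out, Rpl27 ran from −0.26 to −0.07 and Rpl39 from −0.22 to −0.1. With pseudogenes summed in, the log2 fold changes were −0.08 for Rpl38, −0.01 for Rpl10, 0.07 for Rpl27 and −0.11 for Rpl39. Rpl24 had no annotated pseudogene named after it, so the sum could not check its value. Of the 50-base stretches of its mRNA, 77.2% occurred in 2 or more other genes.

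None of the 31 small subunit genes passed the threshold, and 2 had an unadjusted p under 0.05 in edgeR's test, Rps29 among them. Rps29, a zinc-binding protein of the head of the subunit, was at 1268, 1392 and 1258 in Control and 1190, 1051 and 1094 in Prmt1-null iGBs (log2 fold change −0.23, 95% interval −0.45 to −0.02, adjusted p = 0.307). Every Prmt1-null library was below every Control library.

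High values in the small subunit were Rps9 at 0.19 (adjusted p = 0.396), Rpsa, also known as the laminin receptor, at 0.13, and Rps2 and Rps6 at 0.12. Without Control replicate 1 they were 0.08 for Rps9, 0.05 for Rpsa and 0.04 for Rps2, and without Control replicate 3 they were 0.31, 0.22 and 0.18. Rps6 is the protein that S6 kinases phosphorylate downstream of mTORC1. The other low values were Rps27, a zinc finger protein, at −0.19 (95% interval −0.57 to 0.19), Rps16 at −0.08, Rps13 at −0.06 and Rps10 at −0.05. With 1 library left out, Rps27 ran from −0.32 to −0.01. With pseudogenes summed in, Rps16, Rps13 and Rps10 stood at 0.08, 0.01 and 0.05.

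Set side by side, the subunits gave near-equal medians. The median log2 fold change was 0.052 for the large subunit, with 29 genes higher and 19 lower in the Prmt1-null group, and 0.049 for the small subunit, with 23 higher and 8 lower, against −0.001 over all genes tested. With GC and length trends removed from each library, the medians were 0.017 and 0.038, against −0.016 over all genes, and 47 of 79 members were higher. Without that correction, over both subunits 52 of the 79 genes, 65.8%, were higher, against 49.9% of all genes. The groups did not overlap in 13 of the 79 (9 higher and 4 lower), a share of 16.5% against 19.9% of all genes tested (9.95% higher and 9.92% lower). An unadjusted p under 0.05 (edgeR) was also found in 13 of 79 (16.5%), against 13.5% of all genes. The members were more highly counted than most genes. Among the 7279 genes with a mean normalized count over 1000, 26.3% did not overlap and 1447 had an unadjusted p under 0.05 (edgeR).

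The lean toward higher values depended most on Control replicate 1, the library of the male Control mouse. This library also had the lowest total count (45343250) and the lowest marker sums for B cells (9043 CPM) and for macrophages and neutrophils (8.917 CPM). Whether these go with its ribosomal protein values was not tested. In Control replicate 1 the median log2 deviation of a member from its mean over the 6 libraries was −0.14 for the large and −0.133 for the small subunit. In the other 5 libraries the medians lay between −0.012 and 0.071, and the median over all genes was 0.003 to 0.013 in every library. Without Control replicate 1 both medians were −0.001, and 39 of the 79 genes were higher. Without Prmt1-null replicate 3 they were 0.028 (large) and 0.023 (small), and 47 were higher, as they also were without Prmt1-null replicate 1 (medians 0.050 and 0.055). In the 2 female mice of each group alone the medians were −0.024 and −0.031, with 32 of 79 genes higher. The male Prmt1-null library, replicate 3, had deviations of 0.044 and 0.071, opposite in sign to those of the male Control library. With sex as a covariate the medians were 0.042 and 0.051, and 52 of 79 genes were higher.

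**Figure D3:**
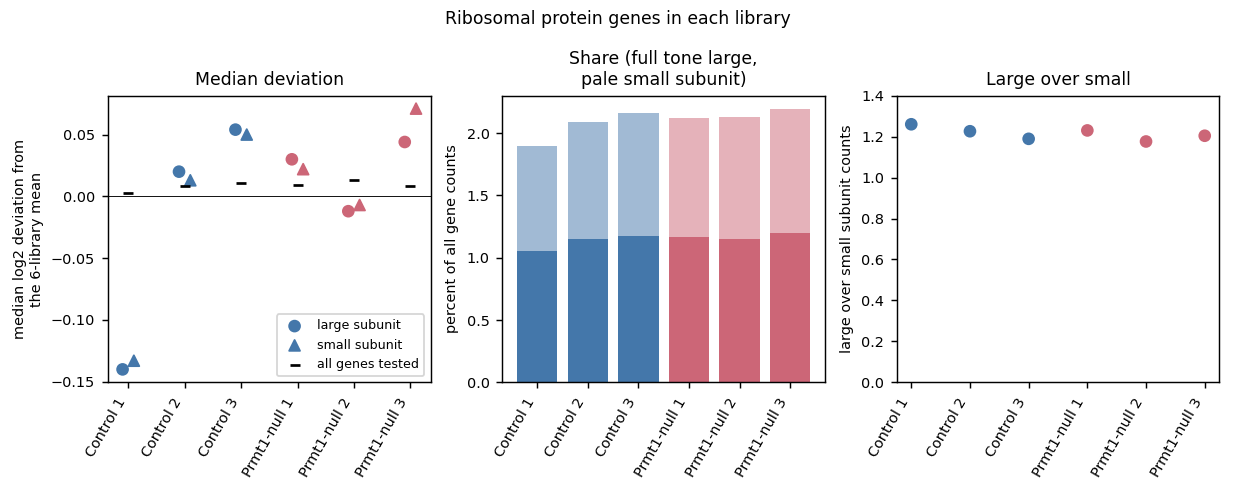
For each library, the median log2 deviation of large (circles) and small (triangles) subunit genes from their 6-library mean beside that of all genes (left), the percent of all gene counts on the members (middle, large subunit in full tone and small in pale), and large over small subunit counts (right). Control replicate 1 is the lowest library in the left and middle panels, and the large over small ratio overlaps between the groups.

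As a share of all counts on genes, the 81 members held 1.898%, 2.092% and 2.161% in Control and 2.117%, 2.127% and 2.191% in Prmt1-null libraries. The groups overlapped, and the means of 2.05 ± 0.136% and 2.145 ± 0.0404% (SD, n = 3) gave a ratio of 1.046, which was 1.009 without Control replicate 1. The large subunit held 1.128% and 1.171% and the small subunit 0.9222% and 0.9735% on average. Large over small subunit counts were 1.26, 1.226 and 1.189 in Control and 1.23, 1.176 and 1.204 in Prmt1-null iGBs, with means of 1.225 ± 0.0356 and 1.203 ± 0.0271 and overlapping groups. The annotated pseudogenes held nearly as many counts as the genes, 1.646 ± 0.091% in Control and 1.677 ± 0.063% in Prmt1-null libraries.

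The members were measured with little spread. The median SD within groups was 0.107 on the log2 scale, against 0.172 over all genes tested and 0.0891 over the 7279 genes with a mean normalized count over 1000, and the median absolute log2 fold change was 0.076, against 0.145 and 0.087.

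Levels differed far more between members than between the groups. Per kb of annotated exon, the highest large subunit genes were Rpl4, which reaches into the exit tunnel, Rplp0, the base of the stalk that recruits translation factors, and Rpl32, at 921, 850 and 808 CPM per kb over the 6 libraries. Rpl4 had 879 ± 52.1 in Control and 962 ± 15.7 in Prmt1-null iGBs, Rplp0 had 817 ± 85.9 and 882 ± 13, and Rpl32 had 814 ± 36.6 and 802 ± 30.9. Their order was within the spread between libraries in Control, while in Prmt1-null iGBs the library values did not overlap. Per kb of mRNA the order differed, with Rpl32 at 1510, Rpl4 at 1200 and Rplp0 at 1040. In the small subunit Rpsa led with 758 and Rps15 stood at 732, again closer together than the SD of Rpsa in Control, 84.3. Rpsa alone took 11.5% and Rpl4 8.81% of the raw counts of all members, pooled over the 6 libraries.

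The lowest large subunit genes per kb of exon were Rpl39l at 0.666, Rpl12, a protein at the base of the stalk, at 3.03, and Rpl11, which with Rpl5 and 5S RNA forms a particle that can bind Mdm2, at 6.06. The library values of Rpl11 (5.22 to 6.93) met those of Rpl24 (5.18 to 6.89). Per kb of mRNA, Rpl17 at 13.0 was lower than Rpl11 at 19.6. In the small subunit the lowest were Rps27 at 6.19, Rps13 at 6.3 and Rps10 at 8.86. Rps27 and Rps13 differed by less than the spread between libraries, and the 6 library values of Rps10 (7.92 to 9.47) met those of Rps27 (4.96 to 8.17). These levels are those of countable reads. Rps10 and Rps13 had 1155 and 959.1 normalized counts in Control, while their pseudogenes held 26.47 and 30.72 times as many. In all, 53 members had annotated pseudogenes named after them, 220 in number, and in 32 of these families the pseudogenes held more counts than the gene in Control, in 8 of them over 10 times as many.

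Members whose mRNA was more repeated among annotated transcripts also stood lower. The 15 genes with under 10% of their 50-base stretches in 2 or more other genes had a median of 240.7 CPM per kb of mRNA, the 35 genes with 10 to 50% had 165.3, and the 29 genes with 50% or more had 99.7. Across the 79 genes the Spearman correlation of level and repeated share was −0.28, a description over genes of the same 6 libraries. The median log2 fold changes of the 3 classes were 0.07, 0.02 and 0.05, and 13 of 15, 20 of 35 and 19 of 29 genes were higher in Prmt1-null iGBs.

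**Figure D4:**
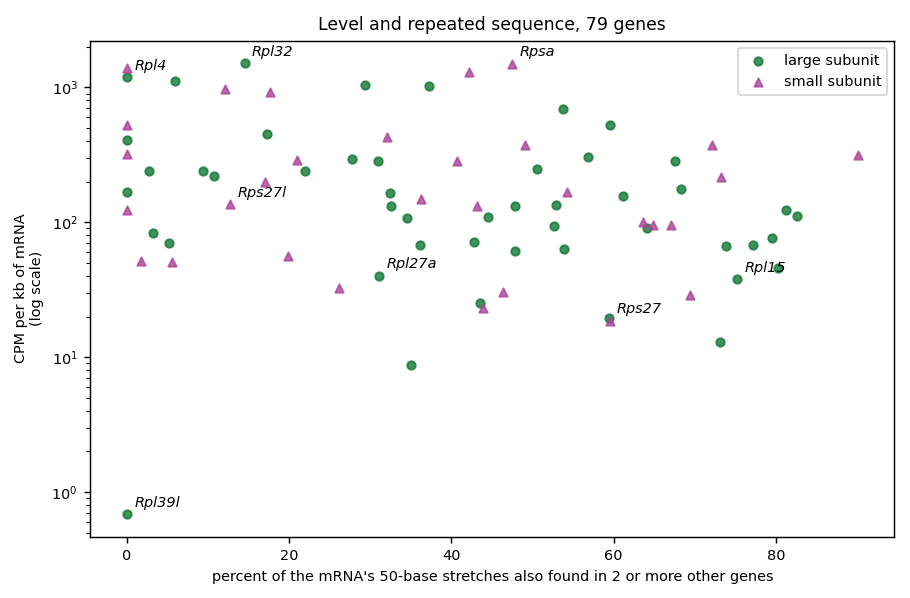
Mean level of each of the 79 tested genes (CPM per kb of mRNA over the 6 libraries, log scale) against the percent of 50-base stretches of its mRNA that also occur in 2 or more other genes, for large (circles) and small (triangles) subunit genes. Levels scatter over more than 3 orders of magnitude at the left because of Rpl39l (0.688), Rpl15 lies at 75.2% with a level of 37.9, and Rps27 lies at 59.5% with 18.7.

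In the small subunit the log2 fold change followed the level, with a Spearman correlation of 0.67 over 31 genes (0.41 without Prmt1-null replicate 2, 0.46 without Control replicate 1 and 0.45 with pseudogenes summed in), while in the large subunit it was 0.05 over 48 genes. These are descriptions across genes that share libraries and depth.

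The symbols ending in l name paralogs of members. Of 5 such genes, Rps27l and Rpl36al were well counted. Rps27l, a p53 target, was at 3848, 4024 and 3428 in Control and at 3490, 3754 and 4081 in Prmt1-null iGBs, with means of 3766 ± 306 and 3775 ± 296. The groups overlapped, and the log2 fold change was 0.00 with a 95% interval of −0.16 to 0.17. Its parent Rps27 had 381.4 ± 81 and 334.4 ± 51.2. Per kb of exon the paralog stood at 83.3 and the parent at 6.19, but 59.5% of the stretches of the Rps27 mRNA and 12.7% of those of Rps27l were found in 2 or more other genes.

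Rpl36al was at 1830, 2162 and 1949 in Control and 2061, 2057 and 2352 in Prmt1-null iGBs (log2 fold change 0.12, 95% interval −0.07 to 0.31), and its X-linked parent Rpl36a at 2720, 3277 and 2943 and at 3000, 2518 and 3208 (−0.04, 95% interval −0.24 to 0.17). Levels per kb of exon were 27.6 for the paralog and 32.1 for the parent. Both pairs of groups overlapped, and neither gene passed the test.

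The remaining 3 paralogs were near or at the limit of detection. Rpl39l, known from the testis, had 22, 50 and 6 raw counts in Control and 80, 26 and 2 in Prmt1-null iGBs, a spread within groups far beyond the difference between them (log2 fold change 0.45, 95% interval −1.47 to 2.37). Its parent Rpl39 had 7925 ± 529 and 7071 ± 476 normalized counts. Rpl3l, a paralog of heart and skeletal muscle, had 0, 4 and 2 raw counts in Control and 5, 0 and 18 in Prmt1-null iGBs and was not tested. Rpl10l, a testis paralog of the X-linked Rpl10, had 0 counts in all 6 libraries, which allows up to 3 counts, or 0.0478 to 0.0662 CPM, in each, with counting error alone in view.

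Other members were grouped by role after their values had been seen, and are given without a test. The 4 proteins of the stalk and its base, Rplp0, Rplp1, Rplp2 and Rpl12, had log2 fold changes of 0.09 to 0.21, with Rplp1 highest (7304 ± 1120 and 8476 ± 161, adjusted p = 0.291 in edgeR's quasi-likelihood test), but without Control replicate 1 Rplp0 was at 0.04 and Rpl12 at 0.01, and without Control replicate 3 Rplp0 was at 0.19. Of the 2 proteins of the 5S RNA particle, Rpl5 had 0.07 and Rpl11 −0.10. With 1 library left out, Rpl11 ran from −0.21 to −0.02. Of 8 proteins of the exit tunnel and its rim, 3 were higher and 5 lower, from −0.16 for Rpl39 to 0.26 for Rpl31. Of 16 genes whose human counterparts are mutated in Diamond-Blackfan anaemia, a failure of red cell production, 8 were higher and 8 lower, with a median of 0.01, and Rpl15 is among them.

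Ribosomal proteins are themselves modified on arginine and other residues. Rps3, a known substrate of PRMT1, was at 33410 ± 2890 in Control and 34570 ± 484 normalized counts in Prmt1-null iGBs (log2 fold change 0.05, 95% interval −0.10 to 0.20). Rps2, the substrate of PRMT3, had 0.12, and Rps10, the substrate of PRMT5, had −0.05. Of 8 enzymes that modify ribosomal proteins, Prmt1 itself fell and Prmt5, the main enzyme of symmetric arginine dimethylation, rose from 5541, 5607 and 5789 to 6531, 7106 and 6762 normalized counts (log2 fold change 0.27, SE 0.057, adjusted p = 0.0396, edgeR's quasi-likelihood test), while Prmt3 stood at 0.07 (adjusted p = 0.807). The call for Prmt5 was lost with any library but Control replicate 3 left out. Adjusted p-values were 0.0767 to 0.225 (edgeR's quasi-likelihood test) without Control replicate 1 or 2 or any 1 Prmt1-null library. With any 1 library left out, the log2 fold change of Prmt5 was 0.24 to 0.3. The other 5 enzymes, Ntmt1, Mettl18, Mina, Ogfod1 and 2410016O06Rik, did not pass the test.

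Ribosomal proteins whose symbols the rule does not match gave no call among 8 genes, with 5 higher and 3 lower and 1 with an unadjusted p under 0.05. Rps3a1 had 71170 ± 1600 and 72600 ± 2000 normalized counts (log2 fold change 0.03), and its near-identical copies Rps3a2 and Rps3a3, among which reads can be split, −0.01 and −0.08. Fau, which makes a small subunit protein fused to a ubiquitin-like one, was at 5534, 5961 and 6197 in Control and 5368, 4763 and 5452 in Prmt1-null iGBs, did not overlap, and had −0.18 (adjusted p = 0.233). Gnb2l1, the scaffold Rack1 of the small subunit, had 0.08, and the paralogs Rpl22l1 and Rpl7l1 had 0.11 and 0.07.

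**Figure D5:**
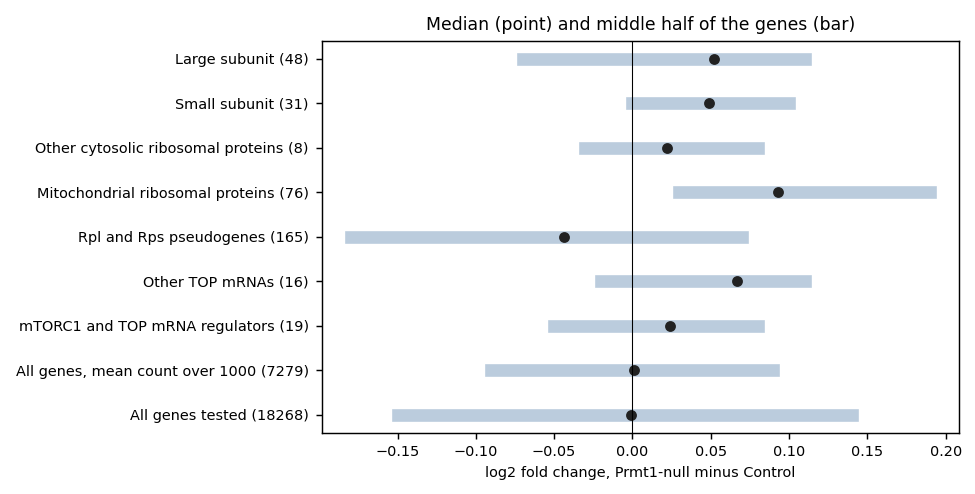
Median log2 fold change (point) and the range from the lower to the upper quartile (bar) for each gene list, with the number of tested genes in parentheses. The large and small subunit medians (0.052 and 0.049) lie between those of the mitochondrial ribosomal proteins (0.093) and the Rpl and Rps pseudogenes (−0.044).

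The proteins of the mitochondrial ribosome, encoded by a separate set of nuclear genes, had 64 of 76 genes higher (84.2%, against 49.9% of all genes) and 12 lower, a median of 0.093 and 0 calls, with 13 at an unadjusted p under 0.05 (edgeR). The groups did not overlap in 20 that were higher and 1 that was lower. That share of 27.6% compares with 19.9% of all genes and 26.3% of genes with a mean normalized count over 1000. The 165 tested pseudogenes had 70 higher and 95 lower, a median of −0.044 and 0 calls, with 18 at an unadjusted p under 0.05.

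TOP mRNAs that do not encode ribosomal proteins had 11 of 16 genes higher and 5 lower, with 1 call. This was Hnrnpa1, an RNA-binding protein that PRMT1 methylates, which rose from 7837, 8145 and 6410 to 9566, 11520 and 9598 normalized counts (log2 fold change 0.45, SE 0.092, adjusted p = 0.033, edgeR's quasi-likelihood test). Its adjusted p was 0.0642 without Control replicate 2, and 0.0961, 0.186 and 0.0695 without Prmt1-null replicate 1, 2 and 3 (edgeR's quasi-likelihood test). With any 1 library left out, the log2 fold change of Hnrnpa1 was 0.36 to 0.52. The elongation factor Eef1a1 had 0.17 (adjusted p = 0.151) and Eef2 0.12 (adjusted p = 0.459). Of the 19 genes of mTORC1 and TOP mRNA control, 13 were higher and 6 lower, and 0 passed the test, with 1 at an unadjusted p under 0.05 (edgeR). Mtor had −0.06, Larp1 0.05 and Myc 0.03. The gene with the unadjusted p under 0.05 (edgeR) was Tial1, at 0.26 (adjusted p = 0.153, edgeR's quasi-likelihood test). Deptor had the lowest value, −0.95 (adjusted p = 0.504, same test), at means of only 29.95 and 15.52 normalized counts, and its groups did not overlap.

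The start of transcription was examined because the TOP motif lies there. Promoter sequences of RefSeq on GRCm38.p6 could be matched for 61 of the 81 genes. A C at the annotated start followed by 4 pyrimidines was found in 13 of 61, or 21.3%, against 3.01% of 27025 genes, and a run of at least 8 pyrimidines within 5 bases before to 15 after the start in 21 of 61, or 34.4%, against 7.84%. The 30 bases around the start are shown for both genes that rose, for the gene with the lowest value, and for the most counted member, with the longest pyrimidine run that touches the region in capitals. The first transcribed base is the 16th.
Rpl15 (chr14:18270972-18271001, minus strand): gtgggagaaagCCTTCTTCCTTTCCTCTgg
Rpl27a (chr7:109519180-109519209, plus strand): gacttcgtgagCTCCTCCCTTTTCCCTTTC
Rpl38 (chr11:114668565-114668594, plus strand): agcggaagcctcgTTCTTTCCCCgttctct
Rpsa (chr9:120127751-120127780, plus strand): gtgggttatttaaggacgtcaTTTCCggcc

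The run of Rpl15 spans 17 bases, that of Rpl27a at least 19, since it reaches the end of the stretch shown, that of Rpl38, the gene with the opposite sign, 10, and that of Rpsa 5. Over the tested genes with a matched promoter, the median log2 fold change was 0.04 for the 21 with a run of at least 8 pyrimidines and 0.03 for the 38 without. In the 300 bases of the promoter, searched on both strands, CCGGAAG, letters of the ETS family's binding site, was found in 41% of the members and 9.93% of all genes. CACGTG, the E-box bound by Myc, was found in 9.84% and 8.09%, TATAAA in 9.84% and 15.7%, and AAGATGGC, letters bound by YY1, in 8.2% and 3.19%. A match describes the letters only.

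Hosts of small nucleolar RNAs and X-linked members were set apart last. The 29 members that hold the 57 annotated small nucleolar RNA genes had a median log2 fold change of 0.064 with 20 higher, and the 50 tested members without one had 0.038 with 32 higher. Of the 4 X-linked members, Rps4x was higher and Rpl10, Rpl36a and Rpl39 were lower, none past the threshold. Of all members, 7 shared exon bases with another gene on the same strand and 19 with a gene on the opposite strand, as Rpl15 did. The library kit keeps the strand of the RNA, but the strand setting of the counting is not given in the sources used here, so the reads of such pairs may be mixed.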

How the data were processed

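Per the study's methods and the submitters' processing notes, the authors used Trimmomatic 0.32 for trimming, STAR 2.3.0e for alignment to mm10, and counted primary alignments with at most 2 locations on exons of the ensGene annotation with featureCounts 1.4.4. The libraries were stranded and depleted of ribosomal RNA. The authors deposited raw counts, checked to be whole numbers and neither normalized nor filtered.

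In R 4.3.3, genes passing filterByExpr (minimum count 10) without 398 chromosome Y genes were TMM-normalized and tested with the quasi-likelihood test of edgeR 4.0.16 without covariates, with Benjamini-Hochberg adjustment over 18268 genes. Calls needed a mean normalized count over 100, with an adjusted p below 0.05. Intervals use the degrees of freedom of the fit, and floors (3 counts) cover counting error only. The tests were also run on simulated data, where smaller changes were recovered less often than larger ones. Alternatives used DESeq2 1.42.0 and limma 3.58.1.

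Coordinates, exon lengths and overlaps come from GENCODE M21 on the same build, to which all 81 members were matched. An mRNA is the principal protein-coding transcript there, and its length gave the second level scale.

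Members and lists were chosen with earlier results of these data known. Named were genes past the threshold, the 5 highest and 5 lowest log2 fold changes and the 3 highest and 3 lowest levels per length in each subunit, paralogs ending in l with their parents, and the ribosomal proteins outside the rule, apart from 2 genes that are not reported here. The 50-base stretches, the promoter motifs, the role groups, the sums with pseudogenes and the female-only fit were chosen after seeing the data. Each library came from a different mouse. Same-numbered libraries are different mice and were not paired.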

Additional observations from a re-analysis of the deposited data

How the results depend on the processing

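Among the limits, each group had 3 mice, reads that fitted more than 2 places were not counted, and both subunit medians lost their positive sign without Control replicate 1. The number of members past the threshold was 2 in the edgeR test described and also with limma-voom, median-of-ratios size factors, scaling without the members, a minimum count of 50, no minimum mean count, chromosome Y genes kept, sex as a covariate, and GC and length trends removed. It was 3 with DESeq2 (Rpl15, Rpl27a and Rpl3), 5 with no filter on low counts (with Rpl3, Rpl23 and Rplp1 added), 1 with a fold change over 1.4 required (Rpl15), and, in alternatives added after seeing the data, 1 with pseudogenes summed in (Rpl27a) and 1 in female mice only (Rpl15). With 1 library left out it was 3 without Control replicate 3 (Rplp1 added) and 1 (Rpl15) without any other library. With the replicate number as a block it was 1, with Rpl15 at an adjusted p of 0.0119 and Rpl27a at 0.0541 (edgeR's quasi-likelihood test), and the call of Prmt5 was lost too (0.0641). The numbers do not pair the mice: deviations of same-numbered libraries correlated at −0.31, 0.22 and −0.34, and no library correlated best with its own number. The medians with 1 library left out ran from −0.001 to 0.069 (large) and from −0.001 to 0.087 (small subunit). In female mice only, the small subunit median moved to −0.031. The count share and the large over small ratio moved by less than the relative SD pooled over both groups under every alternative run, and kept their sides of 1 except the ratio with each member weighted equally, 1.002. In female mice only, adjusted p-values were 0.15 for Rpl27a, 0.0554 for Hnrnpa1 and 0.147 for Prmt5 (edgeR's quasi-likelihood test).

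Log2 fold changes of uncalled genes that changed sign were Rpl39l with limma-voom (−0.4), with the replicate block (−0.08) and with sex as a covariate (−0.03), Rps3a2 (0.02) with GC and length trends removed, and Rpl12 (−0.04) in female mice only. With pseudogenes summed in they were Rpl27 (0.07), Rpl31 (−0.03), Rps16 (0.08), Rps13 (0.01), Rps10 (0.05) and Rpl36a (0.02). With 1 library left out, the lowest and highest values were −0.99 and 1.1 for Rpl39l, −0.03 and 0.02 for Rps3a2, −0.12 and 0.03 for Rps13, −0.11 and 0.06 for Rpl36a, −0.06 and 0.01 for Rpl32, −0.18 and 0.05 for Rps16, and −0.11 and 0.02 for Rps10. Rps27l, at 0.00 with all libraries, ran from −0.06 to 0.06 with 1 library left out and was −0.04 in female mice only. The causes were not tested.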
